A study of Homo sapiens with 8 samples.

Results

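BMI1 knockdown was examined in SK-N-BE, a human neuroblastoma cell line with amplified MYCN, as 1 control array and 1 knockdown array of the 8 arrays in the series. Both arrays were chosen by their titles, which name the line and the hairpin. The series holds 1 such pair for each of 4 established neuroblastoma lines, the other three being NB-39-nu, SH-SY5Y and SK-N-DZ. All cells grew in RPMI1640 with fetal bovine serum. The control cells (shCont) had been infected with a lentivirus made from the pLKO.1 control vector, and the knockdown cells (shBMI1-1) with a lentivirus carrying 1 short hairpin RNA against BMI1. Cells were harvested for RNA 8 to 14 days after infection, with no day stated for either SK-N-BE sample. Whether the infected cells were a pool or a clone is not stated either. A single hairpin was used, so effects of losing BMI1 and effects of that hairpin on other transcripts cannot be told apart. With 1 array a side, a difference in SK-N-BE has no replicate check, and no p-value is given within the line.

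BMI1 is a ring finger subunit of Polycomb repressive complex 1 (PRC1), which places ubiquitin on histone H2A and keeps developmental genes silent. It is best known for repressing CDKN2A, the locus of the p16 and ARF inhibitors of cell division. In neuroblastoma BMI1 is abundant, and it has been studied for its part in growth, in survival after DNA damage and in the balance between dividing and neuron-like states.

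Expression is given as the deposited signal of Affymetrix HG-U133 Plus 2.0 arrays, a linear intensity with 1 value for each probe set, a group of short probes for 1 transcript. For each of 19776 genes the probe set of highest average signal across the 8 arrays was used. The log2 ratio of a gene is log2(signal + 8) in the knockdown array minus the same in the control array, which understates the change of dim genes. A gene was called bright at a signal of 200 or more in at least 1 of both SK-N-BE arrays, and 9942 genes were. Median signals of the arrays were 70.1 and 70.3, and the trimmed mean was 500 on both. The ratio of the 3′ to the 5′ ACTB probe set, a measure of RNA integrity, was 3.81 in the control and 4.44 in the knockdown array, and that of GAPDH was 1.08 and 1.09. The 24 probe sets for poly-A spike-in RNA had a median log2 ratio of -0.24, from -0.61 to 0.10, and the 18 for hybridisation spike-ins one of 0.07, from -0.19 to 0.29. The part of these differences in the gene results was not tested.

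The label was checked against cell type markers. Of 7 measured adrenergic neuroblastoma markers 6 were bright, among them GATA3 (12106 and 13140 in control and knockdown), CHGA (14680 and 12731) and PHOX2A (7043 and 6649), while TH was at 2.80 and 7.19. The summed signal of these markers was 37287 and 35816. None of 12 measured blood and immune markers was bright, the highest being 119. Of 11 fibroblast markers 7 were bright, LUM (4717 and 5167) and ACTA2 (8401 and 4369) among them. Endothelial, epithelial and Schwann cell or glia lists each had a single bright gene (TEK, EPCAM and S100B), and melanocyte markers had MITF and PMEL.

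BMI1 was lower after knockdown, but much of its signal remained. It read 3647 in the control and 2371 in the knockdown array, which leaves 65.0% and gives a log2 ratio of -0.62. That placed BMI1 at rank 270 from the lowest of the 9942 bright genes. The other lines kept 24.6% (NB-39-nu), 65.5% (SH-SY5Y) and 39.4% (SK-N-DZ). A limma fit on the per-line log2 ratios put SK-N-BE 0.70 above the mean of the other three for BMI1, with a standard error of 0.50 (unadjusted p = 0.203, adjusted p = 1.00). The platform annotates its only probe set to COMMD3-BMI1 read-through RNA as well, and COMMD3's own probe set was at 4362 and 4274.

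The other Polycomb subunits stayed within 1.5-fold of control in PRC1, and 2 were above that in Polycomb repressive complex 2 (PRC2), which methylates histone H3. Over all bright genes, 4.43% were at least 1.5-fold higher and 3.37% at least 1.5-fold lower, and every count of a gene list is to be read against those shares. Of 19 bright PRC1 members BMI1 alone was past 1.5-fold, and the list's median was -0.09 against 0.02 over all bright genes. Its closest paralogue PCGF2 was at 1675 and 1506 (-0.15), the enzymatic partner RING1 at 1931 and 2006 (0.06), and the paralogue PCGF6 at 834 and 663 (-0.33). In PRC2 the catalytic subunit EZH2 went from 1205 to 807 (-0.57). JARID2, which helps to bring PRC2 to DNA, was at 2708 and 4548 (0.75), with 0.29 on its other bright probe set. The accessory subunit MTF2 was at 427 and 910 (1.08), but its 5 bright probe sets ran from -0.23 to 1.08.

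Of 12 measured genes linked in earlier work to repression by BMI1, 5 were bright, 3 of them were above 0 and 0 were past 1.5-fold in either direction, with a median of 0.09 against 0.02 over all bright genes. CDKN2A was at 593 in the control and 438 in the knockdown array, a log2 ratio of -0.43, and its other bright probe set had 0.23. Of 28 measured HOX genes, classical Polycomb targets, 11 were bright and 6 of those above 0, with a median of 0.13. In that list 0 were 1.5-fold higher and HOXC5 (267 and 168, -0.64) was 1.5-fold lower. PMAIP1, which encodes the pro-apoptotic protein NOXA, was at 1153 and 1718 (0.57), and its second probe set was at 0.14. MYCN itself, the amplified driver of this line, was at 43219 and 55281, a log2 ratio of 0.36 that shrank to 0.16 after quantile normalization.

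Across the bright genes the response was narrow. The median log2 ratio was 0.02 with an SD of 0.34, from -2.76 to 3.24, and 52.1% of genes were above 0. At least 2-fold higher were 77 genes (0.774%) and at least 2-fold lower 40 genes (0.402%). Over the same genes, NB-39-nu had 568 higher (5.71%) and 237 lower (2.38%), SH-SY5Y 139 (1.4%) and 144 (1.45%), and SK-N-DZ 171 (1.72%) and 199 (2%). These genes were chosen as bright in SK-N-BE, so some are dim elsewhere. Over each line's own bright genes the 2-fold share was 1.18% in SK-N-BE, 7.39% in NB-39-nu, 1.48% in SH-SY5Y and 1.64% for SK-N-DZ.

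**Figure D1:**
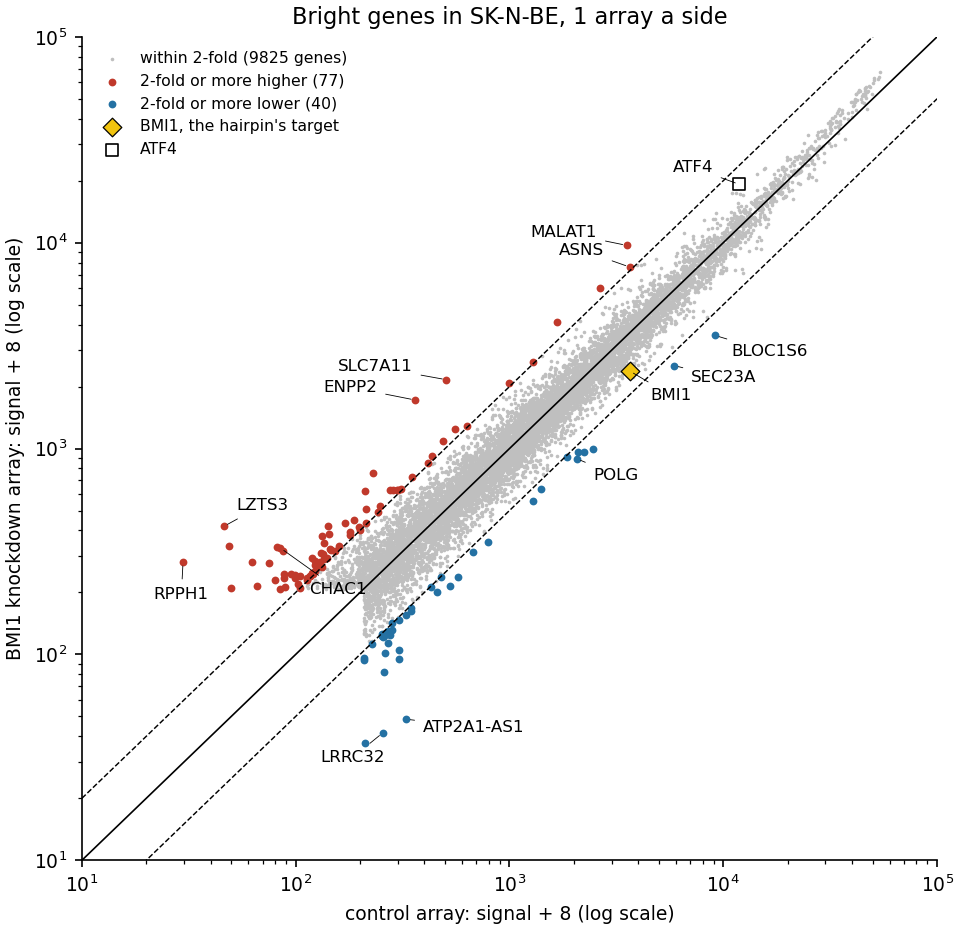
Signal of each of the 9942 bright genes in the control array (horizontal axis) and the BMI1 knockdown array (vertical axis) of SK-N-BE, both as signal + 8 on log scales; dashed lines mark 2-fold. The 77 red and 40 blue genes lie past 2-fold, most of them at low signal, and BMI1 (yellow, 3647 and 2371) and ATF4 (white square, 11855 and 19185) lie within it.

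Most 2-fold genes were among the dimmest of those kept. Of 2319 genes whose brighter signal lay between 200 and 500, 54 were 2-fold higher and 27 lower, and their log2 ratios had an SD of 0.45. Above a signal of 5000 there were 1439 genes with an SD of 0.25, of which 3 were higher and 2 lower. Of the 77 higher genes 25 had a signal of 200 or more in both arrays, and of the 40 lower genes 15. The genes nearest the 2-fold line were SLC2A11 (1.01) and NPEPL1 (-1.003) just inside it, and ATP1B1 (0.98) and BRPF1, CLDN15, SHROOM1 and TEAD3 among those just outside.

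Genes of the amino acid response were higher as a group, with the highest median of the lists drawn. When amino acids run short or the endoplasmic reticulum is stressed, kinases phosphorylate the initiation factor eIF2 and translation of the transcription factor ATF4 rises. ATF4 then switches on genes for amino acid synthesis, amino acid import, tRNA charging and redox defence. Of 38 bright genes in the list of ATF4 and unfolded protein response genes, 31 (81.6%) were above 0, 11 were at least 1.5-fold higher and 0 were 1.5-fold lower, with a median of 0.43. All 40 listed genes were measured. ATF4 itself read 11855 in the control and 19185 in the knockdown array (0.69). After quantile normalization the median was 0.40, again with 31 genes above 0.

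Amino acid importers of the list were higher. SLC7A11, the cystine importer that feeds glutathione synthesis, went from 499 to 2151, a log2 ratio of 2.09. Its second bright probe set went from 303 to 1034 (1.74), so both were past 2-fold. SLC7A5, a carrier of large neutral amino acids, was at 2142 and 3516 (0.71), and its partner chain SLC3A2 at 737 and 981 (0.41). SLC1A5, a glutamine carrier, was at 272 and 369 (0.43).

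Enzymes of amino acid synthesis followed the same direction with some exceptions. ASNS, asparagine synthetase, was at 3641 in the control and 7603 in the knockdown array (1.06). CTH, which makes cysteine, was at 2043 and 3798 (0.89), with 1.26 on its second probe set. In serine synthesis PSAT1 was at 6524 and 11158 (0.77) and PHGDH at 1624 and 2453 (0.59), whereas the last enzyme, PSPH, was at 3483 and 2790 (-0.32), with probe sets from -0.36 to 0.32. CBS (0.14) and SHMT2 (0.06) were close to control. The tRNA ligases WARS1 (0.57), GARS1 (0.51) and AARS1 (0.37) were all above it.

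Stress regulators of the ATF4 arm were also above control. CHAC1, which degrades glutathione, went from 76.8 to 321 (1.95) and was dim in the control. TRIB3, a pseudokinase that restrains ATF4, was at 1050 and 1815 (0.79), and DDIT3, the transcription factor CHOP, at 405 and 645 (0.66). STC2, a secreted glycoprotein, was at 761 and 1292 (0.76), but its second bright probe set was at 377 and 375 (-0.01). INHBE, a stress-inducible hepatokine gene that was not in the list, went from 42.1 to 173 (1.85) and did not reach the bright limit.

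The 7 bright members of the list that were not above 0 were PSPH and 6 genes of the unfolded protein response. HSPA5, the main endoplasmic reticulum chaperone BiP, was at 12199 and 11243 (-0.12), CALR at 3295 and 2732 (-0.27) and PDIA4 at 5042 and 4323 (-0.22). XBP1, a transcription factor of that response, was at -0.02, MANF at -0.08 and DNAJC3 at -0.31. Other endoplasmic reticulum proteins of the list were above 0, among them HSP90B1 at 1838 and 2465 (0.42), HERPUD1 (0.49), EDEM1 (0.51), DNAJB9 (0.30), SEL1L (0.29), PDIA6 (0.10), SDF2L1 (0.10) and CRELD2 (0.06). None of these 14 unfolded protein response genes was past 1.5-fold, and they were grouped by function after their values were seen.

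The 300 bases around the start sites were compared, because the list holds both kinds of promoter. RefSeq promoters of GRCh38.p14 (250 bases before and 50 after the start) were found for 37 of the 40 genes. TGATGNAA, the core of the C/EBP-ATF response element bound by ATF4, was in 6 of the 37 (16.2%) against 3.62% of 35116 promoters on either strand. The endoplasmic reticulum stress element (CCAAT, a fixed gap, then CCACG), bound by NF-Y with ATF6, was in 5 of the 37 (13.5%) against 0.0769%. The list was composed of ATF4 and unfolded protein response genes, so a higher share than in all promoters follows from its make-up. It is no result of the knockdown. The 6 genes with the first motif were ATF3, CHAC1, ASNS, SLC3A2, HERPUD1 and AARS1. Their median log2 ratio was 0.48 and all 6 were above 0, but the 29 bright genes without it also had a median of 0.42, with 23 above 0. Past 1.5-fold were 2 of the 6 and 8 of the 29. SLC7A11, CTH and TRIB3 were not among the 6. The 5 genes with the second motif (XBP1, HSPA5, HSP90B1, CALR and CRELD2) had a median of -0.02 with 2 above 0, against 0.49 with 27 of 30 above 0 for those without it. A match describes these letters only and is not evidence of binding, and no difference by motif was tested. Shown 5′ to 3′ with the motif in capitals are the promoters of ASNS (chr7:97872359-97872658, minus strand) and CHAC1 (chr15:40953221-40953520, plus strand), the 2 genes of the first motif past 1.5-fold. The promoter of HSPA5 (chr9:125241294-125241593, minus strand), which has the second motif and was near control, is shown too. In CHAC1 the match is on the opposite strand and reads as its reverse complement.
ASNS: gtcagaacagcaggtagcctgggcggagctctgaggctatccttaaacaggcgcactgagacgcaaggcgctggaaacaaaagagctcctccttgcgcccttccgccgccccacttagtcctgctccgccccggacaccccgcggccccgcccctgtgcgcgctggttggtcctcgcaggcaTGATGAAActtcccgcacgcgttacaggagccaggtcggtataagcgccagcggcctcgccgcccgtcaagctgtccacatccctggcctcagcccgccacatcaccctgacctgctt
CHAC1: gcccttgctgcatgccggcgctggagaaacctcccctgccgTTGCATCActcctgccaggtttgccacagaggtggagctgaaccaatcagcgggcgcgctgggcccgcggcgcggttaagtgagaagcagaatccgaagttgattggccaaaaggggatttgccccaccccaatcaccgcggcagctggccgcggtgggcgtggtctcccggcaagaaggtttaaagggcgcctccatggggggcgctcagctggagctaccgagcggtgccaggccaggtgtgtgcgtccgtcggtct
HSPA5: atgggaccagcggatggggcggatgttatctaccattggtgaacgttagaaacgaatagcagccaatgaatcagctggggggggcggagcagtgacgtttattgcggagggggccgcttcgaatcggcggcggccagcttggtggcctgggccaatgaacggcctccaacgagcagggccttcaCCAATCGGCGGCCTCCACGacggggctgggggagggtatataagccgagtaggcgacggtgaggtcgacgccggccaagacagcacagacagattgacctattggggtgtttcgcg

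In the other lines the same list had lower medians, a difference that was not tested. Its median log2 ratio was -0.36 in NB-39-nu, -0.04 in SH-SY5Y and 0.12 for SK-N-DZ. SLC7A11 was at -3.34 in NB-39-nu (336 and 26.0), at -0.06 in SH-SY5Y and at 0.12 for SK-N-DZ. SLC7A11, ASNS and TRIB3 were named for their high values in SK-N-BE, and that selection favours a difference from the other lines. Their unadjusted p-values in limma are therefore no independent support. In the limma fit SK-N-BE exceeded the mean of the other lines by 3.19 for SLC7A11, with a standard error of 1.25 (unadjusted p = 0.039, adjusted p = 1.00). For ASNS the difference was 1.29 with a standard error of 0.32 (unadjusted p = 0.00504, adjusted p = 1.00), and for TRIB3 1.12 with a standard error of 0.30 (unadjusted p = 0.00738, adjusted p = 1.00). SK-N-BE was the highest of the 4 lines for each of these genes, and none passed the limma threshold after adjustment. Without NB-39-nu, SLC7A11 did pass it, and ASNS and TRIB3 did not.

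**Figure D2:**
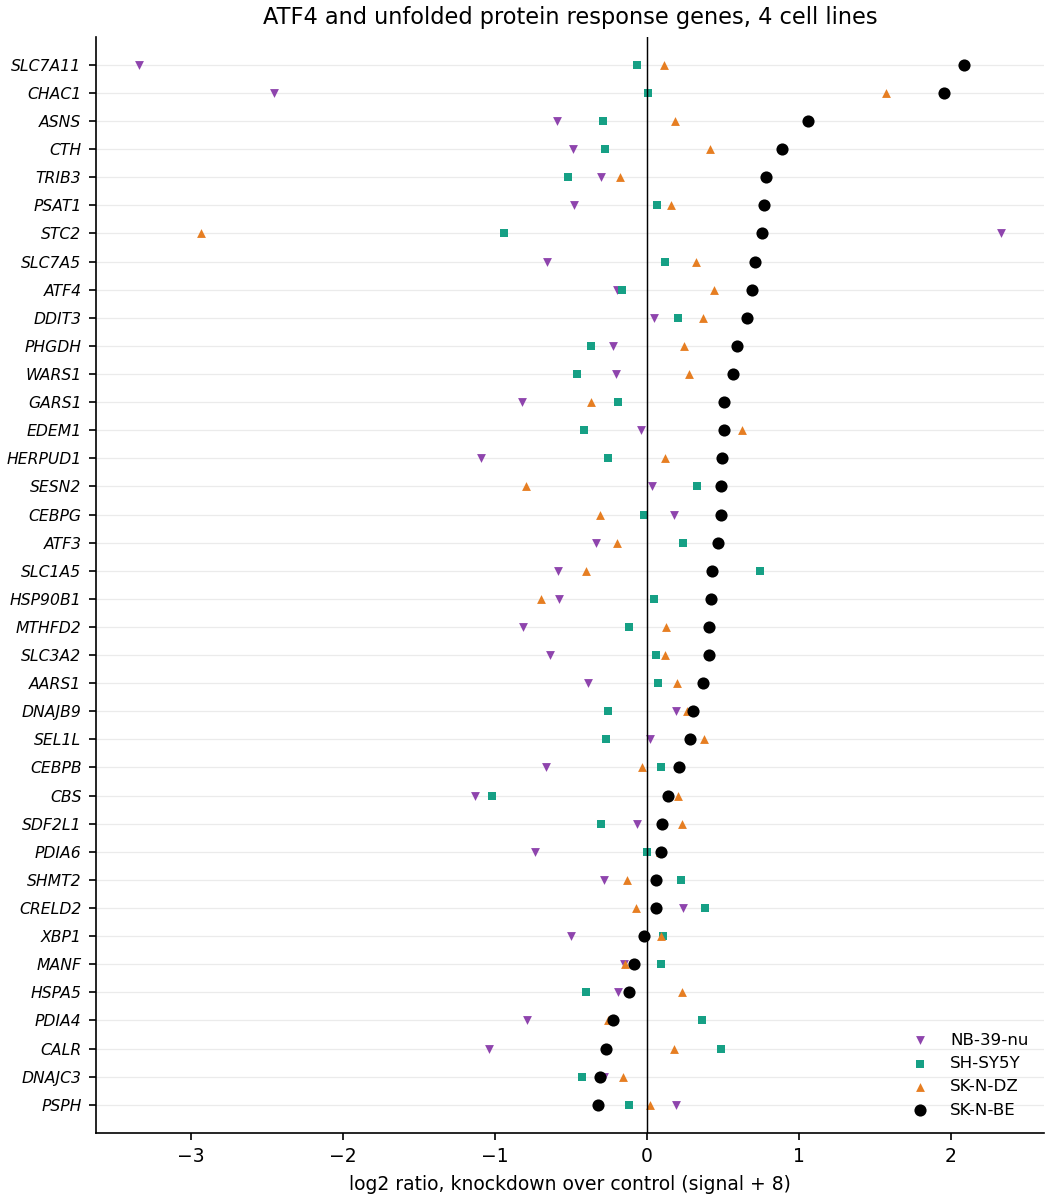
Log2 ratio of knockdown over control (horizontal axis, signal + 8) for the 38 bright genes of the ATF4 and unfolded protein response list, sorted by the value in SK-N-BE (black circles), with NB-39-nu, SH-SY5Y and SK-N-DZ as coloured symbols, 1 array pair a line. In SK-N-BE 31 genes lie right of 0, while SLC7A11 lies at 2.09 there and at -3.34 in NB-39-nu.

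NRF2 target genes, another stress program, had a median near that of all bright genes. Of 31 bright NRF2, glutathione and antioxidant genes 12 were above 0, with a median of -0.03. NQO1, a quinone reductase and standard NRF2 target, was at 5726 and 3109 (-0.88), and its 3 bright probe sets ran from -0.88 to -0.54. GCLM, the modifier subunit of the enzyme that starts glutathione synthesis, was at 1020 and 650 (-0.64), with its other bright probe sets at -0.77 and 0.30. SLC7A11 belongs to this list too and is its only member past 1.5-fold on the higher side.

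Cytosolic and mitochondrial chaperones had 0 genes 1.5-fold higher and 5 of 24 lower. They were DNAJB6 (504 and 261, -0.93), HSPB1 (3815 and 2270, -0.75), DNAJB4 (739 and 461, -0.67), CHORDC1 (5074 and 3218, -0.66, but 0.10 on its other, dim probe set) and BAG3 (2832 and 1874, -0.59). HSPB1 and BAG3 are standard targets of the heat shock factor HSF1. The abundant HSP90AB1 (0.21) and HSPD1 (0.09) were near control, the latter at -0.14 after quantile normalization.

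Most genes of neuronal identity were above control. Of 29 bright neuronal differentiation genes 21 were above 0, 5 were 1.5-fold higher and 0 lower, with a median of 0.21. DCX, a microtubule protein of young migrating neurons, was at 992 and 2084 (1.07), with 0.58 on its second probe set. The neuronal RNA-binding proteins ELAVL2 (252 and 456, 0.84), ELAVL3 (598 and 986, 0.71) and ELAVL4 (9234 and 13946, 0.59) were all higher, though the other bright probe sets of ELAVL4 were at 0.59, 0.01 and -0.39. STMN4, a microtubule regulator, was at 2060 and 3186 (0.63). The neurofilament chain NEFL (-0.07) and GAP43 (-0.10) were close to control.

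Synaptic genes had a median of 0.22 over 20 bright members, with 16 above 0, 4 past 1.5-fold higher and 0 lower. PCLO, a large scaffold of the presynaptic active zone, was at 1661 and 4122 (1.31), and its second probe set at 445 and 964 (1.10). CPLX1, a regulator of vesicle fusion, was at 240 and 520 (1.09), and SYN1, a synaptic vesicle surface protein, at 175 and 267 (0.59). RAB3A, a vesicle GTPase, was at 40.8 and 329 (2.79), so its ratio rests on a dim control value. Of 19 bright voltage-gated channel genes 15 were above 0 and 4 were 1.5-fold higher, with none lower. They were KCNMB4 (1.02), CACNA1B (0.69), HCN3 (0.65) and SCN3B (0.64). SCG2, a granin of secretory vesicles, was at 4268 and 7867 (0.88).

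Medians of the neuronal list were 1.04 in NB-39-nu, 0.00 in SH-SY5Y and 0.20 for SK-N-DZ, and those of the synaptic list 0.20, -0.07 and 0.12. The difference of these medians between lines was not tested. The adrenergic core transcription factors of neuroblastoma had a median of 0.08 in SK-N-BE, with SATB1 (300 and 460, 0.60) and SOX11 (573 and 377, -0.60) at the ends.

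Immediate early genes, which report growth factor signalling, had a median of 0.36, with 15 of 21 above 0. Of these 21 genes 3 were 1.5-fold higher and 0 lower, and the lowest was at -0.41. Signalling itself was not measured. The highest of the 21 was DUSP4, a feedback regulator of the ERK pathway, at 1275 and 2624 (1.04). The other bright probe sets of DUSP4 were at 0.75 and, from 1981 to 1257, at -0.65. Further feedback regulators past 1.5-fold were SPRY1 (155 and 272, 0.78) and DUSP5 (320 and 503, 0.64). DUSP6 (1091 and 1627, 0.57, with all 3 probe sets from 0.57 to 1.46) was just within 1.5-fold on the probe set used. RGS2, which damps signals from G proteins, was at 4128 and 7781 (0.91) and was also higher in NB-39-nu (1.27), SH-SY5Y (0.62) and SK-N-DZ (0.68).

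Ribosomal protein genes were above 0 in 39 of 39 bright members with a median of 0.22, but this depended on scaling. After quantile normalization 25 were above 0 and the median was 0.03, and no member reached 1.5-fold under the deposited scale. No direction is therefore given for them.

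Interferon response and antigen presentation genes had the lowest median of the lists drawn, -0.24, with 5 of 27 bright members above 0. IFITM2, a membrane protein that blocks virus entry, was at 253 and 93.7 (-1.36), OAS3, a sensor of double-stranded RNA, at 1487 and 823 (-0.85), and HLA-F, a nonclassical antigen presenter, at 7237 and 4666 (-0.63). Those were the 3 members past 1.5-fold. The immunoproteasome subunits PSMB8 (3096 and 2274, -0.44) and PSMB9 (4848 and 3606, -0.43) and the peptide transporter TAP1 (2936 and 2327, -0.33) were lower by less. B2M, at 45703 and 47806 (0.06), was not. Medians in the other lines were -0.05, -0.10 and 0.00. CGAS, a DNA sensor upstream of interferon, was listed among the lowest bright genes at 296 and 87.1 (-1.67), but with the mean of its probe sets it stood at 0.14, so no direction is given for it.

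Several matrix genes and TGF-beta feedback genes were lower. Of 19 bright extracellular matrix genes 4 were 1.5-fold lower and 0 higher, with a median of -0.21. COL1A1, the main chain of type I collagen, was at 2440 and 986 (-1.30), and its 3 bright probe sets ran from -1.73 to -0.33. NID1, a basement membrane linker, was at 519 and 208 (-1.29), the microfibril protein FBN1 at 752 and 388 (-0.94), and COL18A1 at 237 and 154 (-0.59). Against this, LUM (0.13), LAMC1 (0.15) and MMP2 (0.10) were near control and DCN, a small proteoglycan, was at 269 and 623 (1.19). The 3 bright probe sets of DCN ran from 0.06 to 1.19. The summed signal of the 11 fibroblast markers, which share COL1A1, DCN and LUM with these lists, was 20386.5 in the control and 15414 in the knockdown array, and its part in the result was not tested.

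In the TGF-beta and BMP list 4 of 21 bright genes were 1.5-fold lower and 0 higher. They were the inhibitory SMAD6 (1488 and 793, -0.90) and SMAD7 (370 and 242, -0.60), the ligand TGFB3 (317 and 169, -0.88) and the receptor TGFBR2 (403 and 248, -0.68). ID1, a direct BMP target, was at 2362 and 1719 (-0.46), whereas ID3 was at 0.29. Mesenchymal state genes of neuroblastoma had 4 of 19 lower, including WWTR1, the YAP paralogue TAZ (467 and 271, -0.76), and CD44 (239 and 151, -0.63), and 1 higher, DCN. The transcription factors of that state, TWIST1 (0.15), SNAI2 (-0.11) and ZEB1 (0.04), were near control.

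Most cell cycle genes were below control by small amounts. Mitosis genes had a median of -0.11 with 13 of 41 above 0, and replication and G1/S genes had the same median and count. PLK1, a mitotic kinase, was at 259 and 179 (-0.52) and MKI67, a proliferation marker, at 1366 and 1075 (-0.34). CDK1 stood out on the higher side at 10943 and 17463 (0.67), with its other probe sets at 0.04 and -0.10. Past 1.5-fold lower were UHRF1, which maintains DNA methylation (6374 and 3563, -0.84), E2F2 (799 and 482, -0.72), the licensing factor CDT1 (2436 and 1572, -0.63) and POLD1 (509 and 333, -0.60). The second brightest probe set of CDT1 was at 0.05. PRIM2, a primase subunit outside the list, was at 786 and 342 (-1.18). The mitosis median was -0.51 in NB-39-nu but 0.54 in SH-SY5Y and 0.20 for SK-N-DZ.

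Genes of p53, apoptosis and DNA damage had few members past 1.5-fold. The p53 list had a median of 0.05 over 25 bright genes, with 15 above 0 and 2 past 1.5-fold, both higher. They were XPC, a damage sensor of nucleotide excision repair (315 and 508, 0.68), and FBXW7, a ubiquitin ligase subunit (4860 and 8357, 0.78), whose 3 bright probe sets ran from 0.78 to 0.90. MDM2, the p53 antagonist and a strong p53 target, was at 2616 and 1859 (-0.49), with another probe set at 0.22. Of 23 bright pro-apoptotic genes CASP6 alone was past 1.5-fold (503 and 291, -0.77). Of 13 anti-apoptotic genes BAG3 alone was, and MCL1 was at 6042 and 8895 (0.56). In the checkpoint list CHEK1, the kinase of the replication checkpoint, was at 3136 and 1988 (-0.66), but its 4 probe sets ran from -0.66 to 0.45. Some genes of these lists are not analysed here.

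Among the largest single changes, few could be checked on a second probe set. Of the 77 genes at least 2-fold higher, 16 had another bright probe set, which went the same way on all of them for 10 genes and was past 2-fold on all of them for 3. Those were SLC7A11, PCLO and ENPP2, which makes the lipid mediator lysophosphatidic acid outside the cell. ENPP2 was at 354 and 1712 (2.25) and at 224 and 579 (1.34). Of the 40 genes at least 2-fold lower, 8 had another bright probe set, 6 of them going one way and 1 past 2-fold throughout. It was POLG, the mitochondrial DNA polymerase, at 2053 and 885 (-1.21) and at 245 and 106 (-1.14).

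Across the transcriptome, probe sets of a gene shared little of their small ratios. Of 4233 genes with 2 or more bright probe sets 2090 (49.4%) had one sign on all of them. The 2 brightest probe sets of a gene differed by a median of 0.23, and the SD of a single probe set taken from these differences was 0.29, close to the SD of 0.34 over all bright genes. The ratios of both had a Pearson correlation of 0.29 across genes, which share the same arrays and are not independent replicates. Log2 ratios within about 0.29 of 0 are therefore inside the spread between probe sets. Genes with every bright probe set past 1.5-fold numbered 30 on the higher and 12 on the lower side.

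Some of these genes are given here, chosen after their values were seen. IRS2, an adaptor of insulin and IGF receptors, was at 3322 and 6019 (0.86), with 1.43 on its other probe set. ATP1B1, a sodium pump subunit, was at 3951 and 7822 (0.98) with 0.85, and RALGDS, an effector of RAS, at 2139 and 4165 (0.96) with 0.81. PRSS12, the neuronal protease neurotrypsin, was at 2784 and 4851 (0.80) with 0.91. On the lower side ATF7, a stress-regulated transcription factor, was at 806 and 460 (-0.80) with -0.84, and AZIN1, which frees ornithine decarboxylase from its inhibitor, at 7235 and 4341 (-0.74) with -0.93. MAP7, a microtubule protein, was at 1382 and 835 (-0.72) with -0.67.

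Other large ratios rest on dim values or disagree between probe sets. The highest of all, RPPH1, the RNA of ribonuclease P, went from 21.7 to 274 (3.24), and LZTS3, a postsynaptic scaffold protein, from 38.1 to 411 (3.18). The lowest, ATP2A1-AS1, an antisense transcript, went from 321 to 40.5 (-2.76), and LRRC32, a cell surface anchor of latent TGF-beta, from 247 to 33.6 (-2.62). Each has a single bright probe set and a knockdown or control value below the median of the table. MALAT1, a nuclear long noncoding RNA, was bright in both arrays at 3524 and 9691 (1.46), and its 9 bright probe sets were all above 0, from 0.11 to 1.49. It was at 0.23 in NB-39-nu, -1.17 in SH-SY5Y and -1.49 for SK-N-DZ. CD24, a cell surface glycoprotein, was at 550 and 1240 (1.16), with 5 bright probe sets from 0.29 to 1.27. PDGFRA, a receptor of platelet-derived growth factors, was at 296 and 97.4 (-1.53) and was above 0 in NB-39-nu (1.72) and SH-SY5Y (1.01). Its ratio in SK-N-DZ (0.68) rests on dim signals in both arrays, the higher being 9.60. No direction is therefore given for PDGFRA in that line. SERPINF1, an antiangiogenic serpin, went from 223 to 756 (1.73), and EFNB2, an ephrin ligand, from 79.4 to 310 (1.86).

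Of the 40 lower genes 14 (35%) were also lower in all 3 other lines, against 12.1% of all bright genes. Of the 77 higher genes 18 (23.4%) were higher in all of them, against 16.4%. The 6 lower genes with the largest smallest change over the 4 lines were BLOC1S6, SGPP1, SEC23A, NID1, ARFGAP3 and STYX. In SK-N-BE, BLOC1S6, a subunit of the complex that builds lysosome-related organelles, was at 9148 and 3533 (-1.37), and its other bright probe sets at -0.58 and -0.40. The other 6 measured BLOC-1 subunits lay between -0.19 and 0.28. SEC23A, part of the COPII coat of secretory vesicles, was at 5895 and 2519 (-1.22), but its second probe set was at 232 and 246 (0.08). SGPP1, a sphingosine phosphate phosphatase, was at 2083 and 953 (-1.12) with -0.27 on another probe set. ARFGAP3, which works in Golgi vesicle traffic, was at 1843 and 907 (-1.02), and the pseudophosphatase STYX at 1394 and 630 (-1.14). These 3 genes with more than 1 bright probe set had their largest change on the brightest one.

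**Figure D3:**
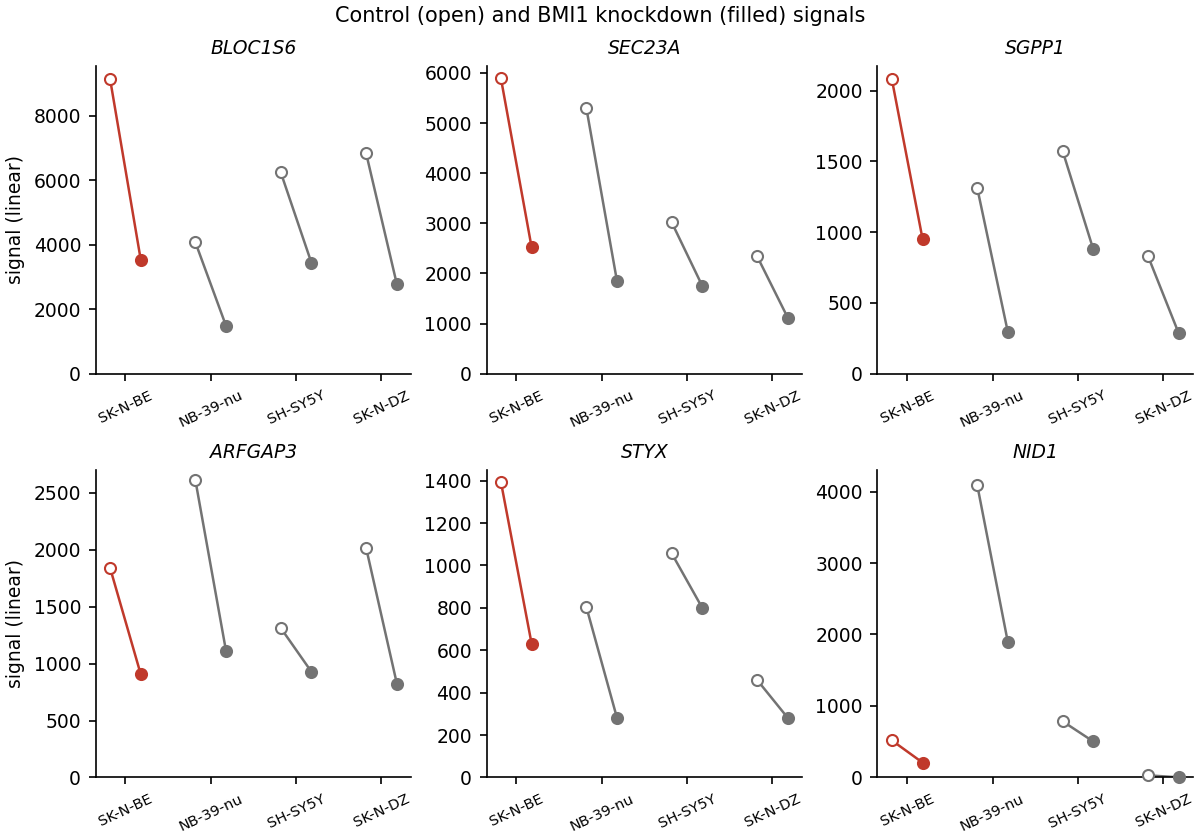
Signal (vertical axes, linear, from 0) in the control (open) and BMI1 knockdown (filled) arrays of 6 genes that were at least 2-fold lower in SK-N-BE (red) and also lower in the other lines (grey), 1 array a point. BLOC1S6 went from 9148 to 3533 in SK-N-BE, and NID1 in SK-N-DZ is dim in both arrays (29.6 and 1.2).

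The 2-fold genes of SK-N-BE were met in part in other lines. Of the 77 higher, 22 (28.6%) were also at least 2-fold higher in NB-39-nu, which is 3.87% of that line's 568, with 2 (2.6%) in SH-SY5Y and 3 (3.9%) for SK-N-DZ. The 22 include ENPP2, PCLO, DCX, CPLX1, ANPEP and EFNB2. In NB-39-nu, CPLX1 (15.1 and 56.2) and EFNB2 (39.1 and 165) stayed below the bright limit. Of the 40 lower, 10 (25%) were 2-fold lower in NB-39-nu, 3 (7.5%) in SH-SY5Y and 11 (27.5%) for SK-N-DZ. Opposite changes occurred too. Among the 40 lower, 6 (15%) were at least 2-fold higher in NB-39-nu, 7 (17.5%) in SH-SY5Y and 2 (5%) for SK-N-DZ. Among the 77 higher, 3 (3.9%) were at least 2-fold lower in NB-39-nu, 3 (3.9%) in SH-SY5Y and 4 (5.2%) for SK-N-DZ. Over all bright genes the shares at least 2-fold higher were 5.71%, 1.4% and 1.72% in NB-39-nu, SH-SY5Y and SK-N-DZ, and those at least 2-fold lower 2.38%, 1.45% and 2%, so the SH-SY5Y and SK-N-DZ counts of 2 and 3 among the higher genes are near the background. These shares were not tested. For 52 of the 77 and 23 of the 40, SK-N-BE had the largest change of the 4 lines, as selection on that line favours.

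A test of SK-N-BE against the other lines called no gene. In limma on the 4 log2 ratios, with the single SK-N-BE value assumed to vary as the other lines do, 0 of 10744 genes passed an adjusted p of 0.05 (0%), and 192 had an unadjusted p below 0.05. Without the variance trend the counts were 0 and 275. The 3 lowest p-values were those of FAM169A (difference 2.43), ARHGAP29 (2.28) and LZTS3 (3.14). When NB-39-nu was left out, 6 genes passed in limma, all higher in SK-N-BE. They were SLC7A11, MALAT1, ARHGAP29, CPE, FAM169A and RBM24, of which ARHGAP29 (2.55 and 39.9), CPE (1.56 and 41.8), FAM169A and RBM24 (5.86 and 54.4) were dim in both SK-N-BE arrays.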

How the data were processed

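Deposited array intensities (signal, linear, 1 value for each of 54675 probe sets and array) were used as given. MAS5 and GCOS are the tools listed in the submitters' processing notes, without versions. The trimmed mean of 500 on every array is from the values. Single-gene names came from the platform annotation for 41097 probe sets and were updated through RefSeq (GRCh38.p14) for 41043; the BMI1 probe set is the exception, being annotated to 2 genes.

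Log2 ratios were computed in Python 3.11.15 (pandas 2.3.3, numpy 2.4.6) with a pseudocount of 8. The difference between lines was tested with limma 3.58.1 in R 4.3.3 (lmFit, eBayes with trend, Benjamini-Hochberg adjustment, threshold 0.05) over genes bright in SK-N-BE or with a mean signal of at least 200, and the script was tested on simulated data. Gene lists were described by counts and medians, with no test.

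The members, the gene lists and the settings were chosen with earlier results of these data known. Named genes followed a rule: BMI1, PRC1 members, MYCN, the 20 highest and 20 lowest bright genes, the same over genes whose probe sets agree, list members past 1.5-fold or at the ends, the lowest p-values and genes near 2-fold. Other genes were named after their values were seen. Alternatives covered the pseudocount, the bright limit, normalization, choice of probe set and each line left out. Present calls and scanner files were not used here. The number of arrays limits the precision.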

Additional observations from a re-analysis of the deposited data

Results flagged for a closer look

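SLC7A11, named for its high value in SK-N-BE, had opposite log2 ratios in SK-N-BE (2.09) and NB-39-nu (-3.34). In limma its value in SK-N-BE differed from the mean of the other lines with an unadjusted p of 0.039 and an adjusted p of 1.00, and it was among the 6 genes that passed when NB-39-nu was left out. The direct difference from NB-39-nu was not tested.

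The ATF4 and unfolded protein response genes had a median log2 ratio of 0.43 in SK-N-BE and -0.36 in NB-39-nu, and this difference was not tested.

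Of 2473 bright probe sets with no single gene name, which no comparison above used, 32 were at least 2-fold higher and 19 at least 2-fold lower (2.06%), against 1.18% of the bright named genes.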

How the results depend on the processing

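The 77 higher and 40 lower genes depended on the signal limit. They numbered 204 and 137 with bright set at 100, 23 and 13 at 500, 25 and 15 with 200 in both arrays, and 1445 and 1431 with no filter. A pseudocount of the table median signal gave 31 and 17. The mean over all probe sets gave 85 and 86. No pseudocount (82 and 44), quantile normalization (71 and 43), median centring (74 and 41) and leaving out _x_at and _s_at probe sets (67 and 38) stayed within 1.5 times. The limma count of 0 for SK-N-BE against the other lines became 6 without NB-39-nu and was 0 in the other settings run. Of the 296 genes that the naming rule picks, none changed sign with the other pseudocounts, quantile normalization or centring, while HSPD1, named outside the rule, went from 0.09 to -0.14 with quantile normalization. With the mean of all probe sets 5 did: CGAS (0.14), OAZ3 (-0.55), SMIM11 (-0.49), SMOX (-0.71) and the PPP6R2 log2 ratio (-0.0397). Without _x_at and _s_at probe sets 11 of 234 did: CGAS (1.75), CHORDC1 (0.10), MIA2 (0.81), NFKB2 (0.77), OGG1 (-0.22), PPP6R2 (-1.62), RABL6 (-0.071), SHROOM1 (0.53), SMIM11 (-0.32), SMOX (-1.73) and USP28 (0.011). These counts concern the sign alone. Counted as moved with the sign kept were 8 of the 296 with no pseudocount and 37 with the table median pseudocount. The number was 96 with the mean of all probe sets and 40 of 234 without _x_at and _s_at probe sets. The cause of these changes was not tested. No paired analysis was possible because SK-N-BE has a single pair of arrays and so no spread within the line; the limma fit across lines already uses the within-line ratio of each pair.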
